A study of Mus musculus with 2 samples.

Results

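The 9 genes described here are the growth factor gene Igf1, the receptor genes Igf1r and Insr, and the binding protein genes Igfbp2 to Igfbp7, chosen by symbol from 43346 Ensembl genes in the tables. The tissue was limb from B6NCrl mouse embryos at embryonic day 13.5 (E13.5), with males and females pooled and no treatment or altered allele named in the labels. The single group, E13.5 limb, has 2 libraries of total RNA longer than 200 nt, made from 10 ng each with ERCC spike-in RNA. The labels number them as biological replicates with a tissue sample each but 1 donor entry, and name neither the limb pair nor the litter, so the spread between the libraries may be partly technical. With 1 group there is no comparison between conditions. The values show how abundant each gene was, which transcripts made up its level, and how far the libraries differed.

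Insulin-like growth factors are secreted peptides that drive growth of the embryo. They act through the receptor tyrosine kinase encoded by Igf1r and, for IGF-II and insulin, also through the insulin receptor encoded by Insr. Secreted binding proteins hold the growth factors outside cells, extend their lifetime and control their access to receptors, and several of them also act on cells without the growth factor. In the limb the system is known for its part in the growth of cartilage and muscle.

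Summed over Ensembl genes, the expected counts came to 31253053 for replicate 1 and 42301448 for replicate 2. Pearson's r of log2(TPM + 1) between the libraries was 0.995, taken over genes, which are not independent replicates of anything. TPM is the deposited abundance divided by length and scaled to the same total in each library. Markers of the limb and its cell types were present, with 7 of 7 mesenchyme, 5 of 5 chondrocyte, 5 of 5 muscle, 5 of 5 endothelial and 4 of 4 ectoderm genes at 1 TPM or more in both libraries. Of all protein-coding genes 61.0% reached that level. None of 7 markers of other tissues reached it, and Nkx2-5 and Umod were at 0. The 3 erythroid markers were also detected, with a summed level of 8914 TPM in replicate 1 and 8939 TPM in replicate 2. Liver markers differed between the libraries, with a summed level of 73.8 TPM over 10 genes in replicate 1 and 19.8 TPM in replicate 2, and 4 of the 10 at 1 TPM or more in both. The part of liver or red cell RNA in the values below was not tested.

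All 9 genes were detected, that is, they reached 1 TPM or more in both libraries. Of all Ensembl genes 34.6% did so, and of protein-coding genes 61.0%. Their levels ran from 1018 ± 34.3 TPM for Igfbp4 to 3.465 ± 0.262 TPM for Igfbp6 (mean and SD of the 2 libraries, as wherever ± is written). Binding protein genes took the 4 highest places and the lowest, while the ligand and receptor genes lay between 27.1 and 46.9 TPM. In bulk tissue, fewer cells of a type and less RNA per cell cannot be told apart.

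**Figure D1:**
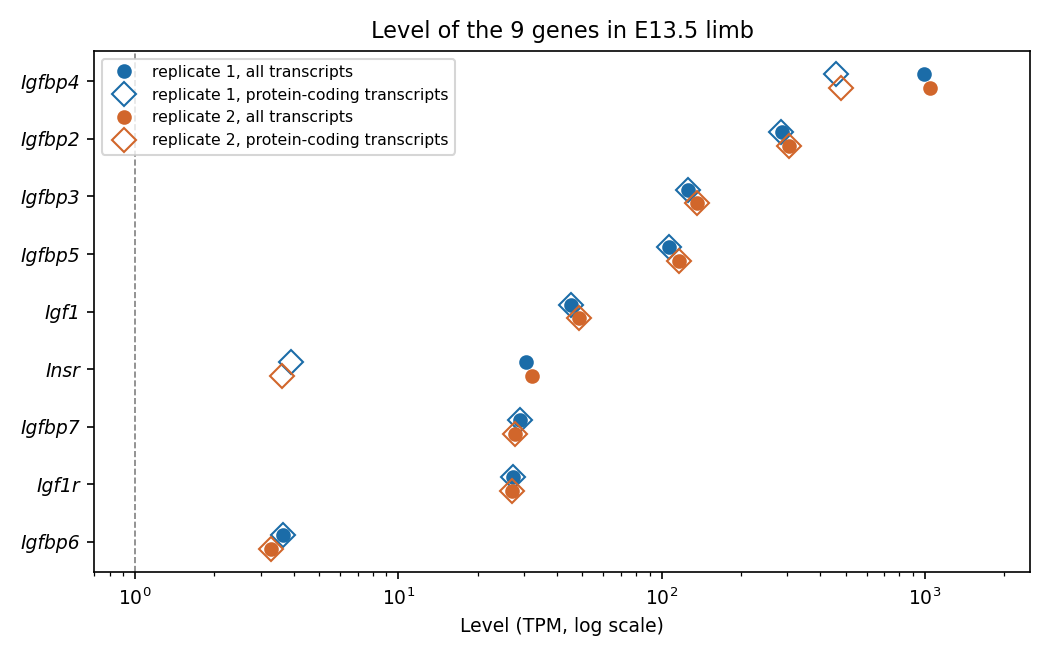
Level of each gene in TPM (log axis) in replicate 1 (blue) and replicate 2 (orange). Filled circles sum all transcripts, open diamonds sum only protein-coding transcripts, and the dashed line marks 1 TPM. Igfbp4 and Insr are the genes whose diamonds lie well below their circles, at 458 and 482 TPM for Igfbp4 and at 3.90 and 3.61 TPM for Insr.

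Among the ligand genes, Igf1 (chromosome 10, 87858265 to 87937042 on the plus strand, mm10) encodes IGF-I. The growth hormone axis and local signals are known to control IGF-I, but whether that axis acted on it in the E13.5 limb was not tested. Igf1 stood at 45.2 TPM in replicate 1 and 48.5 TPM in replicate 2, from 4815 and 6920 expected counts. The second ligand gene, Igf2, stood far higher at 1042 and 1038 TPM, and the insulin genes were at or near the limit, with Ins2 at 0 counts in both libraries and Ins1 at 0 and 1 count. A count of 0 allows up to 3 counts, which is 0.0960 CPM in replicate 1 and 0.0709 in replicate 2.

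Igf1 had more listed transcripts than any other of the 9 genes. The tables list 8, all protein-coding, and 7 of them had counts in both libraries. The gene uses alternative first exons, known as class 1 and class 2, which give the precursor different starts of its signal peptide. It also has an exon near the end that is either skipped, giving the Ea form of the precursor, or included, giving in rodents the Eb form. Neither choice alters the mature growth factor itself. The coding pieces that set these forms apart, from GENCODE M21 transcripts on GRCm38 (the same assembly as mm10), are shown 5′ to 3′, with the start codon in capitals.
Class 1 start, chr10:87859350-87859412, plus strand: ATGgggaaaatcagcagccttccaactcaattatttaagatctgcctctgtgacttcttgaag
Class 2 start, chr10:87861371-87861385, plus strand: ATGaccgcacctgca
Eb exon, chr10:87915298-87915349, plus strand: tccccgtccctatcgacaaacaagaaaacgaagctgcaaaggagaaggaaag
The class 1 piece is 63 bases long and the class 2 piece 15 bases. The Eb exon has 52 bases, which is not a multiple of 3, so the last coding exon is read in another frame after it.

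Class 1 transcripts made up 72.9% of the Igf1 TPM in replicate 1 and 75.7% in replicate 2, and class 2 transcripts 27.1% and 24.3%. Transcripts without the Eb exon held 77.4% and 75.5%, and those with it or with a longer form of it held 22.6% and 24.5%. Both splits were close in the libraries, with SDs of 1.95 and 1.30 percentage points. The main transcript by far was Igf1-202, the class 1 form without the Eb exon and with a long 3′ end, at 68.9% and 68.8% (31.2 and 33.4 TPM).

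As the deposited values divide the reads among transcripts, the Eb exon was spread unevenly over the start classes. Class 1 forms with it held 3.74% and 6.59% of the Igf1 TPM, against 69.2% and 69.1% for class 1 forms without it. Class 2 forms with it or its longer form held 18.9% and 17.9%, against 8.22% and 6.47% for class 2 forms without it. These smaller forms rest on few reads. Igf1-206, the class 2 form with the Eb exon, had 77.8 and 90.6 expected counts for its 14.96% and 12.22%. Its deposited credibility interval, whose level is not given in the sources used here, ran from 2.53 to 9.15 TPM in replicate 1 and from 2.48 to 8.66 TPM in replicate 2. For Igf1-203, the class 1 form with the Eb exon, the interval ran from 0.000441 to 4.07 TPM in replicate 1. In replicate 2 it ran from 1.05 to 5.03 TPM. In each library the intervals of Igf1-203 and Igf1-206 overlapped. Neither Igf1-203, Igf1-204 nor Igf1-206 has a base that no other Igf1 transcript covers, so the uneven spread rests on how shared reads were divided. The remaining forms above 5% in either library were Igf1-204 (5.75% and 4.90%) and Igf1-201 (3.91% and 5.65%). By expected counts, without division by length, class 2 held 5.04% and 5.11% of the gene, and forms with the Eb exon or its longer form 4.45% and 5.72%, because Igf1-202 is 7052 bases long and Igf1-206 is 651.

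**Figure D2:**
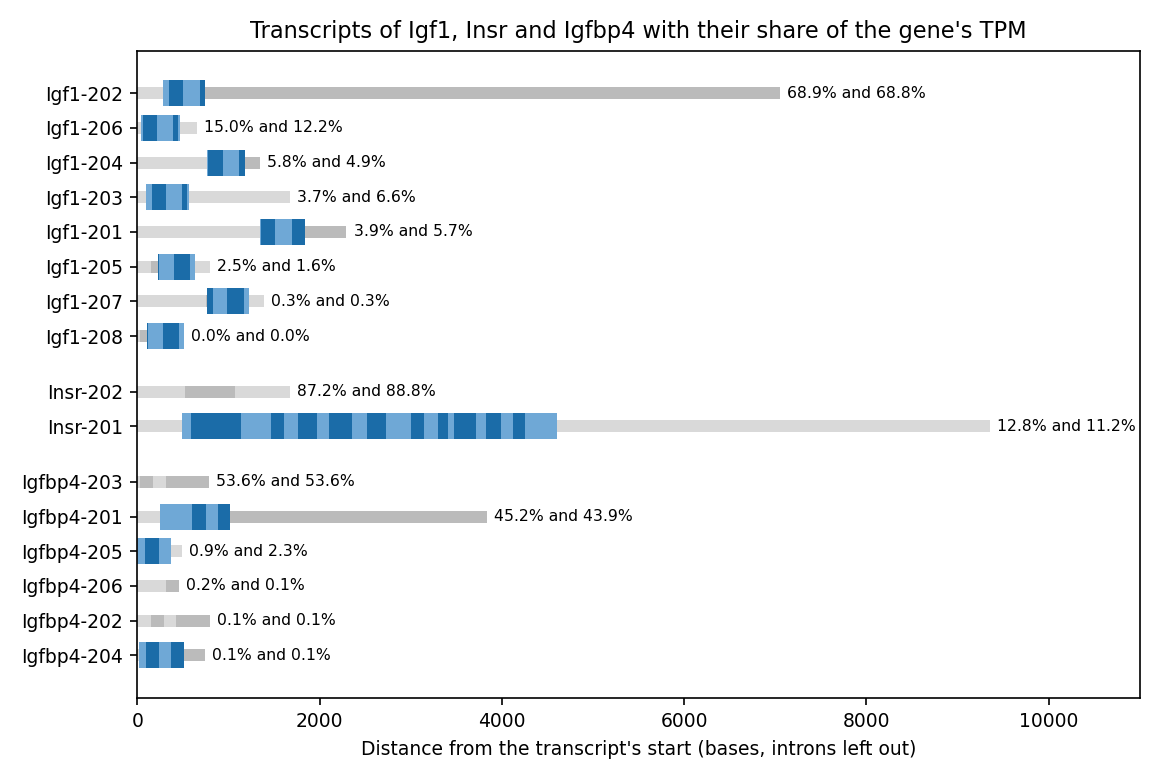
Transcripts of Igf1, Insr and Igfbp4, drawn in bases from their start with exon lengths to scale and introns left out. Shades alternate by exon, blue marks coding and grey non-coding bases, and the percentages are shares of the gene's TPM in replicate 1 and replicate 2. Igf1-202 carries the longest 3′ end of the Igf1 forms, and the most abundant Insr and Igfbp4 entries, Insr-202 and Igfbp4-203, have no coding bases.

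The receptor genes stood close to each other at gene level. Igf1r (chromosome 7, 67952827 to 68233668, plus strand) encodes the main signalling receptor for both growth factors and had 27.1 TPM in replicate 1 and 27.0 TPM in replicate 2. Insr (chromosome 8, 3122061 to 3279617, minus strand), the insulin receptor gene, had 30.5 and 32.2 TPM. Igf1r over Insr was 0.891 in replicate 1 and 0.839 in replicate 2, which lay within the spread of genes of like abundance. A ratio was called past that spread when its sign was shared by the libraries and its mean log2 value exceeded 2 times the combined SD of the replicate differences of the 500 genes nearest to each gene in expected count.

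Most of the Insr TPM was assigned to a transcript that encodes no protein. Only 2 Insr transcripts are listed, where GENCODE M21 has 5, so the shares divide the reads between those 2. Insr-202, annotated as a retained intron, held 87.2% and 88.8% of the Insr TPM (26.6 and 28.6 TPM). By expected counts, without division by length, its share was 53.7% and 57.4%. The full-length coding transcript Insr-201, with 21 exons and 9355 bases, held 12.8% and 11.2% (3.90 and 3.61 TPM). Given only these listed forms, their credibility intervals did not overlap in either library. For Insr-202 they were 24.1 to 27.8 and 26.4 to 29.7 TPM. For Insr-201 they were 3.51 to 4.11 and 3.29 to 3.79 TPM. Insr-202 has 3 exons and 1675 bases. Of these, 278 bases lie in no other Insr transcript of the tables, all in the intron after exon 3, and the rest repeats the first exons of Insr-201. The boundary is shown with the end of exon 3 in capitals and the retained intron in lower case, beginning with the gtaagt of the splice donor that Insr-201 uses.
Insr-202 across the exon 3 boundary, chr8:3211339-3211398, minus strand: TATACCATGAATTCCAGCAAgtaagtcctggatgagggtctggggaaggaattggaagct

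By protein-coding transcripts alone, the receptor genes were far apart. Igf1r then exceeded Insr by 6.81-fold in replicate 1 and 7.31-fold in replicate 2, past the spread. For ratios of protein-coding transcripts, here and below, the spread was that of whole genes. It was not computed for the coding transcripts themselves. Igf1 exceeded Insr by 12.2-fold in the mean on this basis, against 1.49-fold at gene level. Insr by its coding transcript alone differed from Igfbp6, the lowest gene, by less than the spread, at 1.08-fold. The comparison of receptors is uneven, because the tables list 1 transcript for Igf1r, a coding form of 4489 bases, while the later annotation has 6 transcripts for it and gives the coding form 11409 bases. The Igf1r value covers the listed transcript only.

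The insulin receptor exists in an A form, which binds IGF-II with high affinity, and a B form, which differ by a short exon. In the annotation the exon has 36 bases and lies in Insr-203.
Insr alternative exon, chr8:3181702-3181737, minus strand: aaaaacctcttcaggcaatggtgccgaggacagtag
Neither Insr transcript in the tables contains it, so the values cannot separate the A and B forms.

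Igf2r, which encodes a receptor that removes IGF-II and is not one of the 9 genes, stood at 42.7 and 44.0 TPM. At gene level it exceeded Igf1r by 1.57-fold in replicate 1 and 1.63-fold in replicate 2, past the spread. It exceeded Insr by 1.40-fold and 1.36-fold, also past the spread. The Insr total here includes the non-coding Insr-202, and the coding Insr transcript alone stood at 3.90 and 3.61 TPM. Insrr, the gene of the insulin receptor-related receptor, was low at 0.220 and 0.420 TPM.

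The binding protein genes Igfbp2 to Igfbp7 together reached 1545 TPM in replicate 1 and 1631 TPM in replicate 2, against 1087 and 1086 TPM for Igf1 and Igf2 summed. With protein-coding transcripts alone the binding protein sum was 1008 and 1070 TPM, below that ligand sum, which counts all transcripts of Igf1 and Igf2. In replicate 2 the gap (1070 against 1086 TPM) was smaller than the difference of this coding sum between libraries. No spread was computed for these sums. Igfbp4 alone gave 64.4% and 63.9% of the binding protein sum, Igfbp2 18.5% and 18.7%, Igfbp3 8.15% and 8.36%, Igfbp5 6.92% and 7.14%, Igfbp7 1.87% and 1.70%, and Igfbp6 0.236% and 0.201%. The order of these 6 genes was the same in each library.

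What the binding proteins share in sequence is a set of cysteines that fold their ends. The 6 coding sequences held 16 to 20 cysteine codons, with 20 in Igfbp4, 19 in Igfbp2, 18 each in Igfbp3, Igfbp5 and Igfbp7, and 16 in Igfbp6. That is 6.16% to 7.87% of their codons, where the median over all mouse protein-coding genes is 2.13%. The glycine and cysteine motif of the amino-terminal growth factor binding domain was searched in frame on the coding strand. It was found in Igfbp2, Igfbp3, Igfbp4 and Igfbp5 and not in Igfbp6 or Igfbp7. Of 21584 coding genes 18 hold it (0.0834%), and some lie outside the binding protein family, such as Ccn1, Ccn2 and Krtap28-10. The motif was searched as a known mark of this domain, so its presence in binding protein genes is no test. The matches show where it lies, with cysteine codons in capitals and positions counted from the first base of the start codon.
Igfbp2, coding bases 199 to 222: ggcTGCggcTGCTGCtccgtgTGC
Igfbp3, coding bases 202 to 225: ggcTGCggcTGCTGCctgactTGC
Igfbp4, coding bases 154 to 177: ggcTGCggtTGTTGCgccactTGC
Igfbp5, coding bases 151 to 174: ggcTGTggcTGCTGCatgactTGC
The cysteine, tryptophan and valine motif of the thyroglobulin type-1 domain, at the carboxy-terminal end, was found in frame in Igfbp2 to Igfbp6 and not in Igfbp7, and again in 0.0834% of coding genes. All 5 matches read the same.
Igfbp2 to Igfbp6: TGCtggTGTgtg
The genes that held both motifs were 5 in all, Igfbp2 to Igfbp5 and Igfbp1. Igfbp7 is known as a related protein with low affinity for the growth factors. A match describes letters only, and a missing match says nothing of binding.

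Igfbp4 (chromosome 11, 99041244 to 99054392, plus strand), whose product is known mainly as an inhibitor of growth factor action and as a target of the protease Pappa, had 994 TPM in replicate 1 and 1043 TPM in replicate 2. It ranked 102 among all genes by mean TPM. With all transcripts counted, its level differed from that of Igf2 by less than the spread, at 0.954 and 1.00 times the Igf2 level. That closeness holds at gene level only. Protein-coding transcripts of Igfbp4 reached 458 and 482 TPM, against 1042 and 1038 TPM for all transcripts of Igf2. At gene level Igfbp4 exceeded Igfbp2, the next of the 9 genes, by 3.49-fold and 3.42-fold, past the spread.

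Over 50% of the Igfbp4 TPM belonged to a transcript without an annotated coding sequence. Igfbp4-203, a processed transcript of 785 bases, held 53.63% and 53.60% (533 and 559 TPM), and the full coding transcript Igfbp4-201, of 3831 bases, held 45.2% and 43.9% (449 and 457 TPM). The other 4 transcripts held at most 2.28% each. Only 28 bases of Igfbp4-203, its first exon, lie in no other Igfbp4 transcript, and its other 3 exons lie within the last 3 exons of Igfbp4-201, covering part of them.
Igfbp4-203 first exon, chr11:99043597-99043624, plus strand: ggtgggcatctagccccaggtgaagatg
By expected counts Igfbp4-203 took 17.9% and 18.3% of the gene. With protein-coding transcripts alone Igfbp4 stood at 458 and 482 TPM, still the highest of the 9 genes and 1.61-fold and 1.58-fold above Igfbp2, past the spread. Of the binding protein sum on that basis, 45.4% and 45.0% came from Igfbp4.

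**Figure D3:**
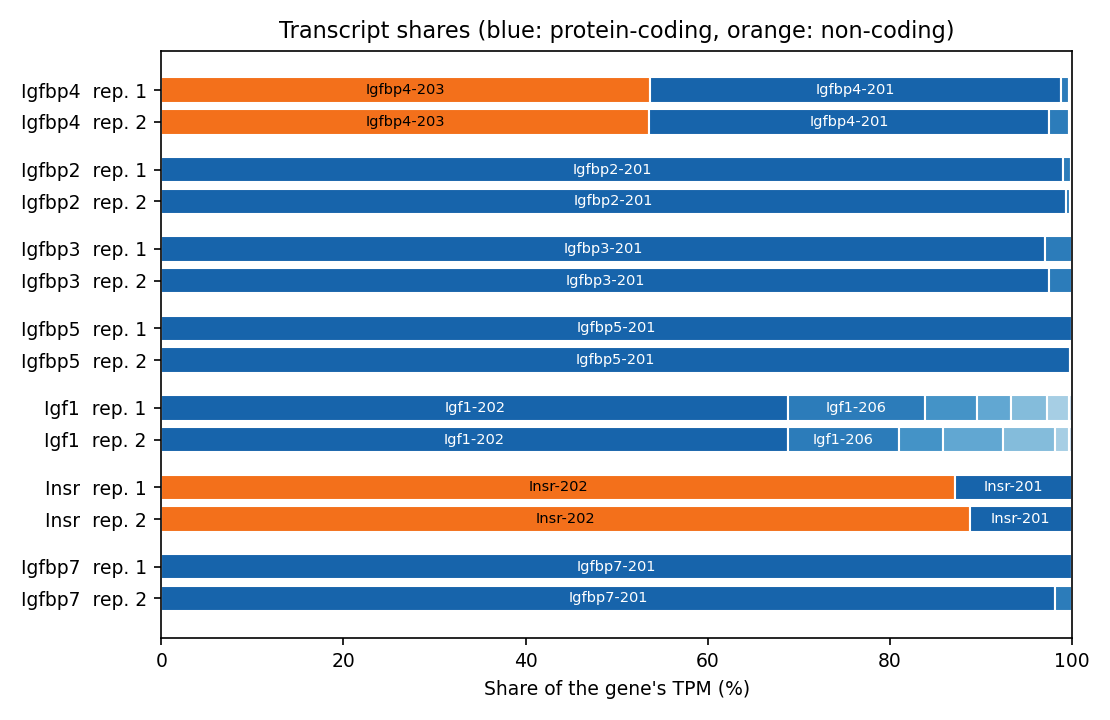
Share of each gene's TPM by transcript, in percent, for the 7 genes with more than 1 listed transcript, with a bar for each library. Blue segments are protein-coding transcripts and orange segments non-coding ones, and the smallest segments are hidden by the white borders. The bars of Insr and Igfbp4 are mostly orange, with Insr-202 at 87.2% and 88.8% and Igfbp4-203 at 53.63% and 53.60%, and those of Igf1 are split among coding forms.

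Non-coding transcripts held over 50% of the gene's TPM in both libraries for Insr and Igfbp4, 2 of the 4 genes here that list transcripts of both kinds. For Igfbp2 and Igfbp5 their share was at most 0.240%. The background is 12.6% of the 7547 detected protein-coding genes that list both kinds, and the median non-coding share among those is 14.5%. The mean share of Insr was above that of 98.4% of these genes and that of Igfbp4 above 87.8%. These genes were singled out after their values were seen.

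Igfbp2 and Igfbp5 are neighbours on chromosome 1 that face each other, Igfbp2 on the plus strand (72824503 to 72852474) and Igfbp5 on the minus strand (72857932 to 72874884), with 5457 bases between them. Igfbp2, a binding protein gene known to be high before birth, had 285 and 305 TPM, and Igfbp5, whose product binds bone and cartilage matrix and is high in developing muscle, had 107 and 117 TPM. The first gene exceeded its neighbour by 2.66-fold in replicate 1 and 2.62-fold in replicate 2, past the spread. Both were made up almost wholly of 1 coding transcript, Igfbp2-201 at 99.0% and 99.3% and Igfbp5-201 at 100% and 99.8%. By expected counts Igfbp5 was the higher of the pair, with 13159 and 19032 against 7157 and 10178 for Igfbp2, since its transcript of 6006 bases is longer than the 1307 bases of Igfbp2-201.

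Igfbp3 (chromosome 11, 7206086 to 7213923, minus strand) encodes the main carrier of the growth factors in adult blood and had 126 TPM in replicate 1 and 136 TPM in replicate 2. Its level was 1.18-fold and 1.17-fold above that of Igfbp5, which lay within the spread by a small margin, at a mean log2 ratio of 0.23 against a limit of 0.23. The coding transcript Igfbp3-201 held 97.1% and 97.5%, and the rest was Igfbp3-202, which has the same coding length of 876 bases and another 3′ end. Igfbp1, its neighbour 3539 bases away on the opposite strand, stood at 1.95 and 2.97 TPM. Igfbp3 was 61.4-fold and 44.5-fold above it, past the spread.

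Igfbp7 (chromosome 5, 77349240 to 77408041, minus strand) is known as a gene of vessel walls and had 28.9 and 27.7 TPM. It had 1 main coding transcript, Igfbp7-201, at 100% and 98.1%. A form with an added coding exon of 93 bases, Igfbp7-202, had 0 counts in replicate 1 and 16.1 expected counts (1.88%) in replicate 2. Igfbp6 (chromosome 15, 102144362 to 102149511, plus strand), whose product prefers IGF-II over IGF-I, was the lowest of the 9 genes at 3.65 and 3.28 TPM, from 77.0 and 92.0 expected counts. Igfbp4 exceeded it by 265-fold and 308-fold.

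In order of mean TPM the 9 genes were Igfbp4, Igfbp2, Igfbp3, Igfbp5, Igf1, Insr, Igfbp7, Igf1r and Igfbp6, and each library alone gave the same order. Of the 8 steps between neighbours in this order, 5 were past the spread. The other 3 were Igfbp3 over Igfbp5, Insr over Igfbp7 (1.11-fold in the mean) and Igfbp7 over Igf1r (1.05-fold), so the order of Insr, Igfbp7 and Igf1r was not resolved. Igfbp5 exceeded Igf1 by 2.36-fold and 2.40-fold, and Igf1 exceeded Insr by 1.48-fold and 1.51-fold, both past the spread. With protein-coding transcripts alone Insr went from place 6 to place 8, below Igfbp7 and Igf1r.

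The libraries differed little in these genes. Log2 ratios of replicate 2 over replicate 1, from expected counts scaled by edgeR's TMM method, ran from -0.17 for Igfbp6 to 0.10 for Igfbp5. None of the 9 was over 1.5-fold apart. Among all genes with 10 or more counts in each library 5.45% were, and among genes with a mean of 1000 counts or more 0.0394%. An absence of such differences is what most genes show. Igfbp6 (77.0 and 92.0 expected counts) and Igfbp7 (615 and 784) lie below 1000 counts, so only the first share applies to them. Each ratio was at most 1.20 times the SD of genes of like abundance, an SD taken from log2 TPM differences between the libraries. Replicate 2 over replicate 1 was 1.05-fold to 1.07-fold for Igf1, Igfbp2, Igfbp3 and Igfbp5 and 1.01-fold for Igfbp4. It was 0.887-fold to 0.991-fold for Igf1r, Insr, Igfbp6 and Igfbp7. A relation of these small differences to the liver markers was not tested.

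**Figure D4:**
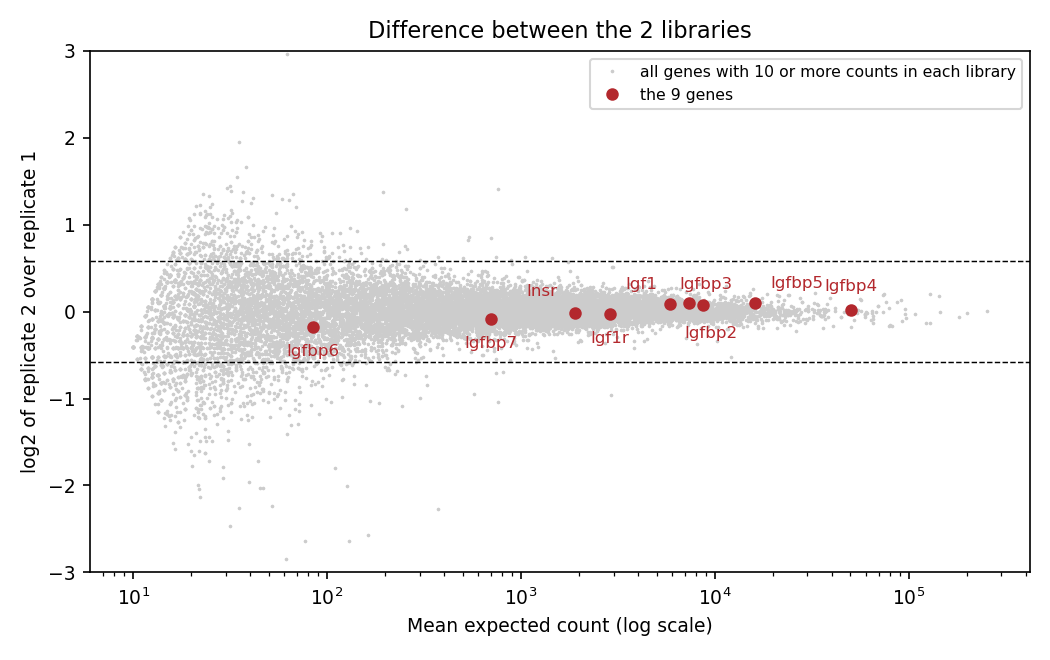
Log2 ratio of replicate 2 over replicate 1 against the mean expected count (log axis) for genes with 10 or more counts in each library (grey; 3 genes past the axis limit of 3 are not drawn) and the 9 genes (red). Dashed lines mark 1.5-fold. All 9 genes lie between the lines, from -0.17 for Igfbp6 to 0.10 for Igfbp5.

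Of 49 other genes of the insulin-like growth factor and insulin pathway, 42 were at 1 TPM or more in both libraries, against 61.0% of protein-coding genes and 34.6% of all genes. Besides the ligand and receptor genes above, the other binding protein genes were low: Igfbp1 was detected, Igfbpl1 stood at 0.390 and 0.210 TPM, and Igfals, which encodes the acid-labile subunit of the blood carrier complex, at 0.140 and 0.160 TPM. All 6 genes of proteases that cut binding proteins, or of inhibitors of such proteases, were detected. The highest was the serine protease gene Htra1 (66.1 and 73.9 TPM), and the lowest was the metalloprotease gene Pappa2 (1.00 and 1.22 TPM). Pappa, whose product cuts the Igfbp4 protein, stood at 2.22 and 1.96 TPM, while Stc1 and Stc2, whose products inhibit that protease, stood at 7.93 and 7.15 TPM and at 1.84 and 2.08 TPM.

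Inside the cell, 7 of 8 adaptor genes were detected. Shc1 was highest at 84.7 and 89.7 TPM, the main receptor substrates Irs1 (8.84 and 9.77 TPM) and Irs2 (10.2 and 9.35 TPM) stood close to each other, and Irs4 was lowest at 0.05 and 0.13 TPM. All 4 genes that dampen signalling at the receptor were detected, led by the imprinted adaptor gene Grb10 at 444 and 504 TPM, with its paralog Grb14 lowest at 7.13 and 7.20 TPM. Of 20 genes of the kinase cascade 19 were detected. The highest was the small GTPase gene Rheb (203 and 190 TPM), whose product activates mTOR, and the gene not detected was Pik3cb (0.960 and 0.840 TPM), which encodes a catalytic subunit of phosphoinositide 3-kinase. Of the kinase genes that carry the signal to growth and survival, Akt2 stood at 94.2 and 97.8 TPM and Akt1 at 58.88 and 51.96 TPM. All 3 genes of the growth hormone axis were detected, from the receptor gene Ghr (53.7 and 56.6 TPM) to Stat5a (4.25 and 4.69 TPM).

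**Figure D5:**
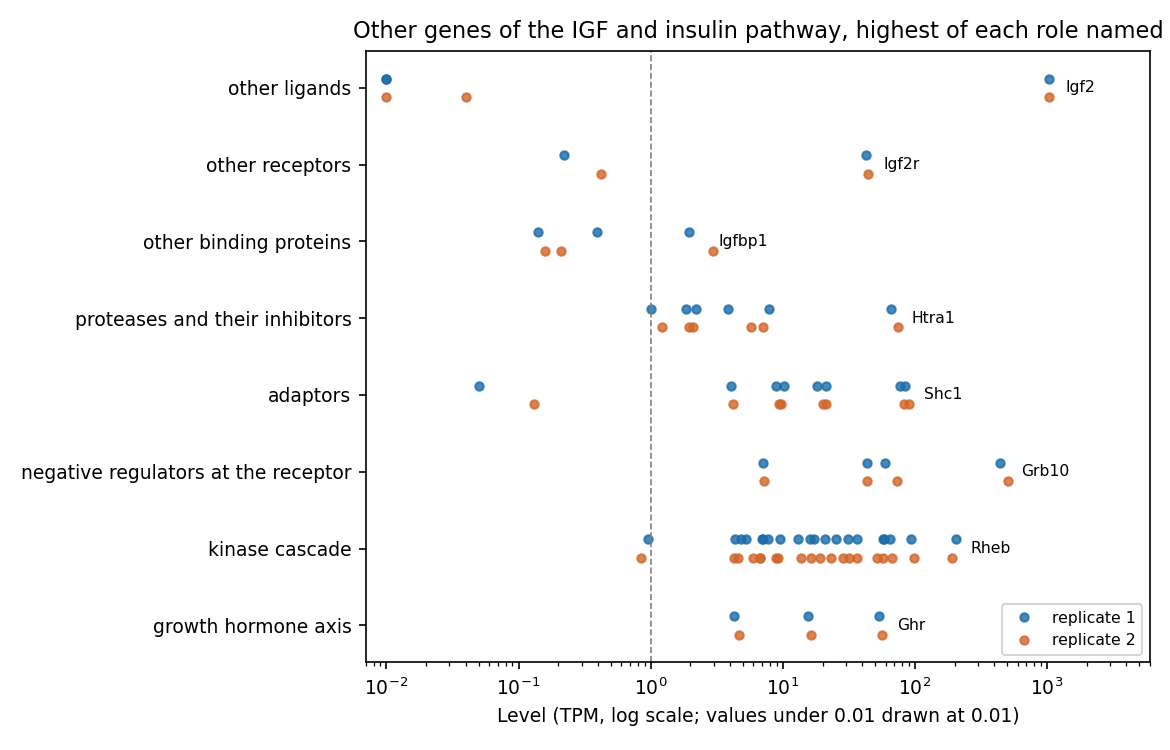
Level in TPM (log axis) of 49 other genes of the pathway by role, in replicate 1 (blue) and replicate 2 (orange), with the highest gene of each role named and 1 TPM marked by the dashed line. Values under 0.01 TPM are drawn at 0.01. Igf2, at 1042 and 1038 TPM, and Grb10, at 444 and 504 TPM, stand highest, and the 7 genes not detected include the insulin genes.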

How the data were processed

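The deposited tables list, for each library, genes and transcripts on mm10 with the GENCODE M4 annotation, per the labels and the text files deposited with them. Which aligner and quantifier were run, and whether strand was used, is not given in the sources used here. The deposited expected counts divide reads among transcripts, the deposited TPM and FPKM values scale them by effective length (99 bases below length), the deposited IsoPct column gives percent of the gene's TPM, and the deposited interval bounds, treated as a score in TPM, surround a posterior mean. Symbols matched 42462 of 43346 identifiers (98.0%).

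GENCODE M21, a later release on that assembly, gave positions, exons and sequences. The 27 transcripts of the 9 genes were all found there, 24 with the same length. Expected counts were rounded for edgeR 4.0.16 and DESeq2 1.42.0 (R 4.3.3), used for scaling only. Other values were computed in Python 3.11.15. Ratios of genes used TPM with 0.1 added, and ratios of libraries used counts with 0.5 added. The SD of replicate differences was tested on simulated counts. The rule that calls ratios between genes past the spread was not simulated. The 9 genes were given by name, transcripts were named at 5% of the gene's TPM or more in either library, and of the other pathway genes Igf2, Igf2r, the highest and lowest of each role and those at 0. The other pathway genes given with values (such as Pappa, Stc1, Stc2, Irs1, Irs2, Akt1 and Akt2) and the transcript forms below 5% were added after their values were seen. No gene was named as like another in pattern, because 2 libraries of 1 group give none. Genes and lists were chosen with earlier results of these data known. Alternatives covered the unit, the added amount, the spread, scaling, filters, thresholds and each library alone.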

Additional observations from a re-analysis of the deposited data

How the results depend on the processing

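No paired analysis was possible because there is 1 group. The order of the 9 genes was the same in posterior mean TPM and in each library alone. FPKM is proportional to TPM within a library, so its identical order was fixed in advance. On expected counts, not divided by length, 3 of 9 kept their place. With protein-coding transcripts alone, an alternative chosen after seeing the data, 6 of 9 did, and the log2 ratio of Insr over Igfbp7 turned from 0.15 to -2.88. Igfbp3 over Igfbp5 passed the spread with posterior mean TPM (0.23), with 200 genes of like abundance (0.23) and in replicate 1 alone (0.24). Transcript shares depended on division by length. By expected counts Insr-202 held 55.6% in place of 88.0%, Igfbp4-203 18.1% in place of 53.6%, Igf1-202 93.3% in place of 68.8%, Igf1 class 2 5.07% in place of 25.7%, and Igf1 with the Eb exon or its longer form 5.09% in place of 23.5%. By posterior mean TPM Igfbp4-203 held 53.5% and Igf1-202 67.8%. Counts of detected genes stayed within 1.5 times the reported value where 0.5 or 5 TPM was required, and with TMM, DESeq2 or TPM scaling none of the 9 genes was over 1.5-fold apart. The 77.0 and 92.0 counts of Igfbp6 and the shared bases of the shorter Igf1, Insr and Igfbp4 transcripts limit their precision.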
